A study of Arabidopsis thaliana with 357 samples.

Results

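The 10 genes described here, JAZ1, JAZ2, JAZ3, JAZ5, JAZ6, JAZ7, JAZ8, JAZ9, JAZ10 and JAZ12, encode JASMONATE ZIM-DOMAIN repressors of Arabidopsis thaliana. They were taken by their gene codes, 10 of the 33600 genes in the count table, and followed in leaves of 17 genotypes at 7 times after infiltration with flg22, a peptide of bacterial flagellin that triggers immunity. JAZ proteins hold the transcription factor MYC2 and its relatives in check by recruiting the NINJA and TOPLESS co-repressors. When the jasmonate (JA) hormone JA-isoleucine is present, it joins the receptor COI1 to the Jas motif of a JAZ protein, the repressor is degraded, and MYC2 becomes free to act. MYC2 also turns on JAZ genes, so that new repressor is made while the hormone acts, and for this reason JAZ transcripts are widely used as a readout of JA signalling in leaves.

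The genotypes were Col-0 plants and mutants in the Col-0 background, named by 4 letters for 4 signalling sectors, upper case for an intact gene and lower case for its mutant allele. The letter J stood for DDE2, the allene oxide synthase needed for JA synthesis, removed by dde2-2; E for EIN2, a membrane protein that passes on the ethylene (ET) signal, removed by ein2-1; P for the immune regulator PAD4, removed by pad4-1; and S for SID2, the isochorismate synthase that makes salicylate (SA) during immunity, removed by sid2-2. All 16 combinations were sampled, from the wild type JEPS (Col-0) to the quadruple mutant jeps, which carries sid2-2, pad4-1, ein2-1 and dde2-2, and the seventeenth genotype, fls2, lacked the flg22 receptor and had all 4 sectors intact. Plants of 31 to 32 days received 1 µM flg22 by syringe, and leaves were taken at 0 h, each hour to 3 h and then at 5, 9 and 18 h, with 3 replicates per genotype and time, 119 groups and 357 libraries in all, each made from 12 leaves pooled over 4 experiments. The 0 h leaves were left untouched and no leaf was infiltrated without flg22, so a change from 0 h holds wounding and water from the syringe, flg22 and the time of day together, and these cannot be told apart within one genotype; fls2, infiltrated in the same way, is the background against which the part of flg22 can be read. Each sector was removed by 1 allele in whole plants, and fls2 by 1 insertion.

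Libraries held 372525 to 5130803 reads on genes, with a median of 1275620. The mutated genes were low in the libraries labelled with their mutant allele, with a median normalised count of DDE2 of 59.1 in 168 libraries with dde2-2 and 2068 in the other 189, although the ranges of EIN2, PAD4, SID2 and FLS2 overlapped between mutant and other libraries. The leaf markers RBCS1A, RCA and LHCB2.1 were read in all 357 libraries, as were SUC2 of the phloem and KAT1 of guard cells. MYB60, also of guard cells, had no read in 2 libraries. The root hair gene EXPA7 had 0 reads throughout and COBL9 0 reads in 356. Each library samples a whole leaf, where fewer cells of a type and less RNA per cell cannot be told apart. Normalised counts below are counts scaled to a 90th percentile of 300 reads per gene in every library. Tag-Seq reads are concentrated in the 3' regions of transcripts, so that a count depends little on transcript length. Only reads of a single gene were kept, and whether the JAZ genes are captured and mapped equally well was not tested. The order of levels between different JAZ genes is therefore given as a description of the counts.

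The promoters are shown first because a JAZ gene is a known target of MYC2, which binds the G-box, CACGTG. The window from 250 bases before to 50 bases after each gene's annotated start (RefSeq, build TAIR10.1) was read on both strands, on which this palindrome is the same. JAZ2, JAZ3, JAZ7 and JAZ8 held it, 4 of 10 members, against 7.68% of the 27443 protein-coding genes with such a window. The first base of the motif lay 66 bases before the start of JAZ2, 140 and 82 before that of JAZ3, 34 before that of JAZ7 and 10 before that of JAZ8. The related motif AACGTG, searched on either strand, was in the windows of JAZ3, JAZ5, JAZ6 and JAZ12, against 8.95% of all windows. The stretches around each G-box are given 5′ to 3′ on the strand of the gene with the motif in capitals, at chr1:28150475-28150544 on the minus strand for JAZ2, and on the plus strand at chr3:6119535-6119604 and chr3:6119593-6119662 for JAZ3, chr2:14572964-14573029 for JAZ7 and chr1:10596310-10596351 for JAZ8.
JAZ2: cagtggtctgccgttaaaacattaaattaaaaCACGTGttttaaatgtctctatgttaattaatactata
JAZ3, outer motif: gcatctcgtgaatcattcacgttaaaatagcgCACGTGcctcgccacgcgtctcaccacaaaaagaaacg
JAZ3, inner motif: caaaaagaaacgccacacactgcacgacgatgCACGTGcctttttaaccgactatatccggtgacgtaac
JAZ7: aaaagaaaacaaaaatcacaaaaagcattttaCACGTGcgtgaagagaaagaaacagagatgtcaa
JAZ8: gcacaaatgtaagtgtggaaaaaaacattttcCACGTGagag
A match in these windows is a description of the letters and does not show that a factor was bound in these leaves.

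JAZ transcripts formed a sharp burst at 1 h. In JEPS, 6 of the 7 members that could be tested were called higher at 1 h than at 0 h, against 20.4% of all 11848 genes tested. A difference was called when the q-value of edgeR's quasi-likelihood test was under 0.05 and the absolute log2 difference above 1. JAZ7, JAZ8 and JAZ10 had too many libraries without a read (152, 156 and 56 of 357) to pass the filter on low counts, and were tested only in a fit of all 26275 genes with a read. In that fit all 3 were called higher in JEPS at 1 h, against 11.1% of genes. The median change of the 7 tested members from 0 to 1 h in JEPS was 2.91 on the log2 scale, against -0.50 over all genes tested.

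JAZ1 (AT1G19180, chromosome 1, 6621777 to 6623668, plus strand), a repressor with the canonical Jas motif and among the first found to be destroyed with JA, had the highest burst of the 10. Its normalised counts in the JEPS libraries were 114.3, 51.3 and 102.6 at 0 h and 11938, 11103 and 12788 at 1 h. They were 3729, 2231 and 2718 at 2 h and still 314.5, 355.9 and 307.5 at 18 h, above every 0 h library. The change at 1 h was 7.08 ± 0.28 (SE) on the log2 scale (q = 7.41e-55). JAZ1 was called higher than at 0 h in 101 of the 102 comparisons of a later time with 0 h over the 17 genotypes, and lower in none. The highest group mean, 12672 ± 750 (SD, n = 3), was in JEPs at 1 h.

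JAZ2 (AT1G74950, chromosome 1, 28148574 to 28150446, minus strand), the closest relative of JAZ1, rose less and was back at its 0 h level by 18 h. The JEPS libraries gave 200, 90.8 and 150 at 0 h, 1442, 1396 and 927 at 1 h and 363, 382 and 211 at 2 h. By 18 h the libraries gave 106.5, 122 and 132.5, within the range of 0 h. The change at 1 h was 3.13 ± 0.30 (SE) on the log2 scale (q = 1.75e-18).

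JAZ5 (AT1G17380, chromosome 1, 5955155 to 5957511, minus strand) and JAZ6 (AT1G72450, chromosome 1, 27273968 to 27276562, minus strand) are a pair of similar repressors, and they started from different levels. For JAZ5 the JEPS libraries held 2 reads each at 0 h (14.3, 7.89 and 5.26 normalised counts) and 1729, 1291 and 1868 normalised counts at 1 h. JAZ6 was already at 585.7, 600 and 439.5 at 0 h and reached 4377, 4555 and 3229 at 1 h. Both were called higher at 1 h, JAZ5 by 7.69 ± 0.72 (SE) on the log2 scale and JAZ6 by 2.91 ± 0.31. JAZ6 was back to 582, 523.6 and 463.2 at 2 h and was at 208.1, 127.1 and 245 at 18 h, below every 0 h library.

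JAZ7 (AT2G34600, chromosome 2, 14573030 to 14573952, plus strand) and JAZ8 (AT1G30135, chromosome 1, 10596352 to 10597341, plus strand) encode small repressors with a diverged Jas motif, and JAZ8 is known to resist destruction by the hormone. JAZ7 held 1, 1 and 2 reads in the JEPS libraries at 0 h and rose to 876.7, 851.1 and 490.9 normalised counts at 1 h. JAZ8 held 2, 0 and 5 reads at 0 h and reached 1418, 1314 and 632.7 normalised counts at 1 h. JAZ8 was down to 54, 81.8 and 45.6 at 2 h. In the fit without a filter the changes at 1 h were 7.15 ± 0.94 (SE) for JAZ7 and 6.96 ± 0.73 for JAZ8 on the log2 scale. Because the 0 h values rest on 7 reads or fewer, the size of these changes is poorly fixed although the groups do not overlap.

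JAZ10 (AT5G13220, chromosome 5, 4218786 to 4221077, plus strand), whose alternative splicing gives forms that are more stable to the hormone, behaved like JAZ5, from a level near 0 to a high burst. It held 1, 2 and 3 reads in the JEPS libraries at 0 h and 1740, 1621 and 954.5 normalised counts at 1 h. The change was 7.54 ± 0.73 (SE) on the log2 scale in the fit without a filter (q = 5.35e-30). It remained at 477, 381.8 and 344.4 at 2 h, which was higher than JAZ8 in the same libraries.

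JAZ9 (AT1G70700, chromosome 1, 26654529 to 26657350, plus strand) and JAZ3 (AT3G17860, chromosome 3, 6119707 to 6123044, plus strand), first described from a dominant JA-insensitive mutant, belong to 1 branch of the family but had unlike time courses in the wild type. JAZ9 went from 485.7, 536.8 and 710.5 in JEPS at 0 h to 2836, 3003 and 4205 at 1 h, a change of 2.53 ± 0.35 (SE) on the log2 scale. It then fell to 270.7, 272.7 and 235.9 at 5 h, below every 0 h library. JAZ3 gave 135.7, 142.1 and 86.8 at 0 h and 147.3, 172.8 and 68.2 at 1 h, ranges that overlap, with a change of 0.11 ± 0.37 (SE) that was not called. JAZ12 (AT5G20900, chromosome 5, 7090704 to 7092539, plus strand), a repressor known as a target of the ubiquitin ligase KEG, moved little, from 457.1, 418.4 and 771.1 to 791.1, 991.3 and 1666, a change of 1.06 ± 0.36 (SE) that was called (q = 0.00316).

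**Figure D1:**
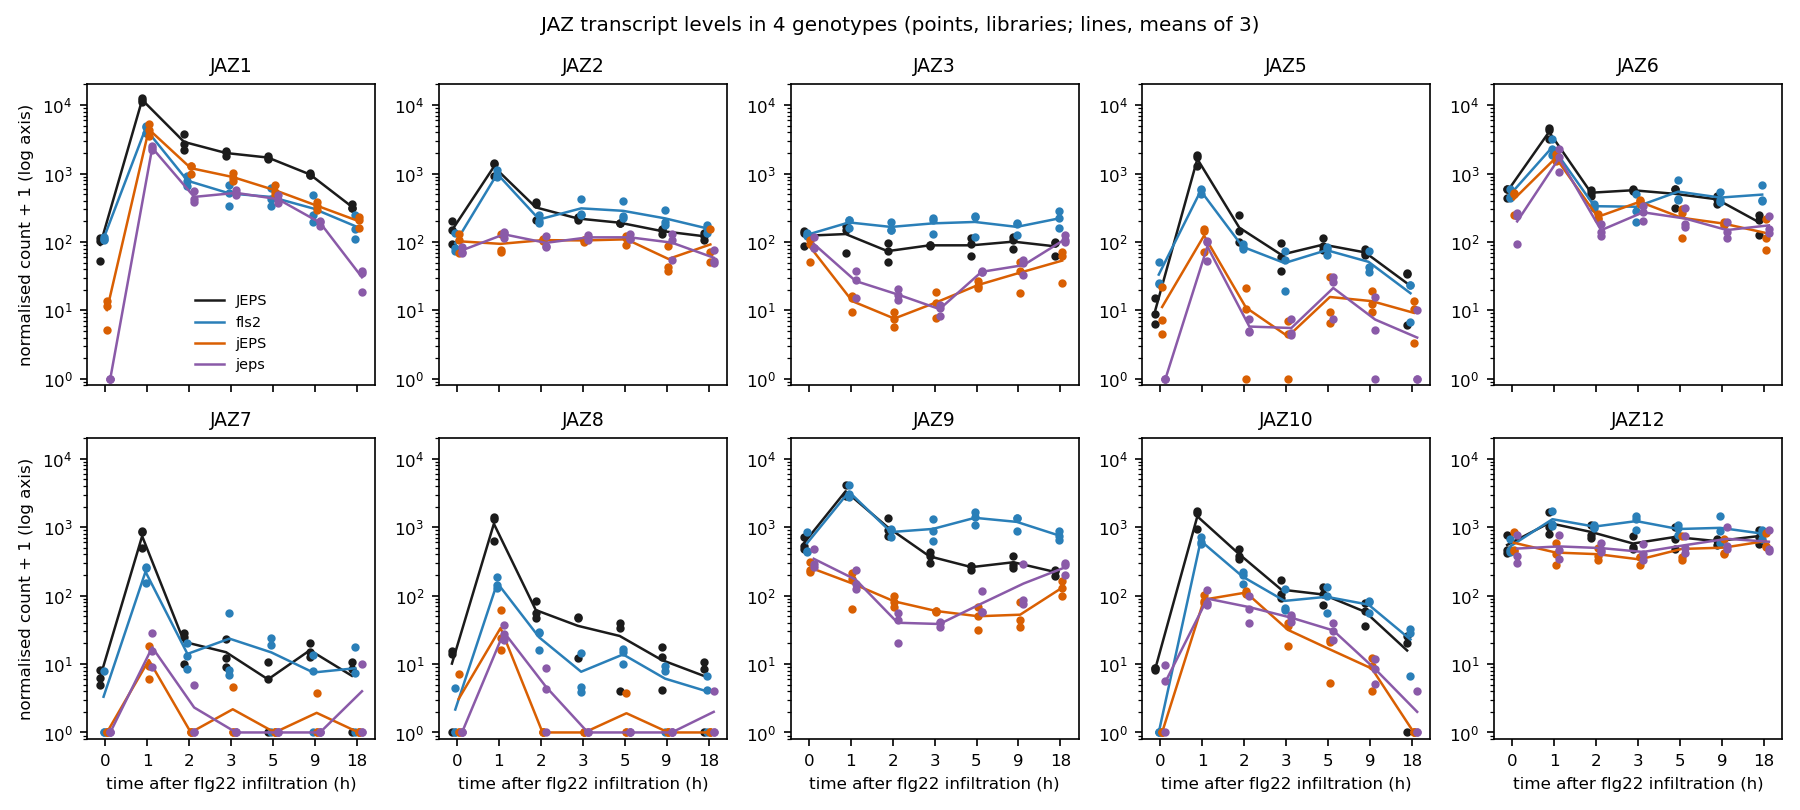
Normalised counts plus 1 (log axis) of the 10 JAZ genes against hours after infiltration in JEPS, fls2, jEPS and jeps; the times are spaced evenly, points are libraries and lines join the means of 3. In JEPS the highest mean of all 10 genes is at 1 h, 11943 for JAZ1, although JAZ3 stays near its 0 h level, and in jEPS and jeps the tops of JAZ2, JAZ7, JAZ8 and JAZ9 are flat or far lower.

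The order of the members changed within the hour. In JEPS at 0 h, JAZ9 (mean 577.7), JAZ12 (548.9) and JAZ6 (541.7) stood together with overlapping libraries, above JAZ2 (146.9), JAZ3 (121.6) and JAZ1 (89.4), which also overlapped each with its neighbour. JAZ8, JAZ5, JAZ10 and JAZ7 followed at 9.15, 9.15, 7.64 and 5.45, and no neighbours among these 4 were separated. At 1 h JAZ1 was alone at the top with 11943, followed by JAZ6 (4054) and JAZ9 (3348), which overlapped. JAZ5 (1630), JAZ10 (1438), JAZ2 (1255), JAZ12 (1150), JAZ8 (1122) and JAZ7 (739.6) formed a chain in which each overlapped the next, and JAZ3 (129.4) was last, apart from all others. By 18 h the order was JAZ12 (741.2), JAZ1 (326), JAZ9 (220), JAZ6 (193.4), JAZ2 (120.3), JAZ3 (85.1), JAZ5 (23.8) and JAZ10 (14.8), with JAZ7 and JAZ8 at 5.73 each, and neighbours overlapped from JAZ9 to JAZ2 and from JAZ5 downwards.

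A burst at 1 h was also present without the flg22 receptor, at a lower level for several members. In fls2 at 1 h the same 6 of 7 tested members were called higher than at 0 h, against 18.5% of genes. JAZ9 rose in fls2 from 432.6, 447.7 and 862 to 2765, 3009 and 4100 normalised counts, a change of 2.5 ± 0.35 (SE) on the log2 scale beside 2.53 in JEPS. JAZ2 reached 897.4, 1120 and 942.1 in fls2, within or just under the JEPS range. The largest changes in fls2 at 1 h among the tested members were 5.35 ± 0.27 for JAZ1 and 4.10 ± 0.46 for JAZ5. Means at 1 h in fls2 and JEPS were 4518 and 11943 for JAZ1, 557.7 and 1630 for JAZ5, and 2442 and 4054 for JAZ6. They were 222.5 and 739.6 for JAZ7, 152.4 and 1122 for JAZ8, and 631.3 and 1438 for JAZ10. JAZ3 (191.8 and 129.4) and JAZ12 (1308 and 1150) had the higher mean in fls2.

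The flg22-specific part of the response was tested as the change from 0 h in JEPS minus the same change in fls2. JAZ1 and JAZ5 responded more in JEPS and JAZ9 responded less, and the other 4 tested members were called at no time. That is 3 of 7 members called at 1 or more of the 6 times, against 32.8% of all genes. At 1 h 2 of 7 were called, beside 7.28% of genes. The members called numbered 2 at 2 h beside 12.2% of genes, 1 at 3 h beside 19.7%, and 2 at 5 h beside 20.7%. At the late times they were 2 (9 h, 14.2% of genes) and 1 (18 h, 12.7%). The share of members called at any time, 3 of 7, is near that of all genes. With the replicate number as a block, 6 of 7 members were called at 1 or more times, with 15 calls in place of 10. The share of all genes called with this block is not given, so the rise is not read as particular to the members. Newly called were JAZ2 at 9 h (-1.19), JAZ6 at 18 h (-1.46), JAZ12 at 3 h (-1.10), JAZ9 at 3 h (-1.37) and JAZ1 at 18 h (1.31), all on the log2 scale.

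JAZ1 was higher by 1.73 ± 0.39 (SE), 2.21 ± 0.40, 2.29 ± 0.40, 2.25 ± 0.40 and 1.98 ± 0.40 on the log2 scale at 1, 2, 3, 5 and 9 h in JEPS than in fls2 (q from 1.2e-05 to 0.00237), and by 1.28 ± 0.41 at 18 h, which was not called (q = 0.0917). At 0 h both genotypes were at a like level, 51.3 to 114.3 in JEPS and 106.2 to 115.1 in fls2, and at 3 h the JEPS libraries gave 2086, 1794 and 2097 against 335.7, 523.5 and 673.6 in fls2. The groups did not overlap at 1 h either, when fls2 gave 4714, 3933 and 4908. The call at 1 h was lost without replicate 2, at 1.43. JEPS and fls2 of the same time and replicate were always sequenced in different lanes, and with a term for lane the difference at 1 h was 1.44 and still called. Libraries also carried a site label, umn or tsl. In replicate 2 at 5 h it was umn for JEPS and tsl for fls2, and site was not tested on its own. JAZ5 was higher by 3.59 ± 0.85 at 1 h (q = 0.00128) and 2.96 ± 0.88 at 2 h (q = 0.0253), with 594.8, 496.9 and 581.6 in fls2 at 1 h. Part of the JAZ5 difference lies at 0 h, when fls2 held 24.4, 23.1 and 49.4 normalised counts, above every JEPS library, and the JEPS level rests on 6 reads in all. Its call at 1 h was lost without replicate 3, at 2.68, and its call at 2 h without any 1 of the replicates (2.39 to 3.18), without the filter and with a term for sequencing lane (2.67).

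JAZ9 ran the other way at late times. In fls2 it stayed high, at 1059, 1655 and 1394 normalised counts at 5 h, when JEPS was down to 270.7, 272.7 and 235.9. The replicate 2 libraries of this time (1655 and 272.7) carried different site labels, and site was not tested. The difference in response was -2.40 ± 0.51 (SE) at 5 h (q = 0.000845), -1.97 ± 0.51 at 9 h (q = 0.0123) and -1.78 ± 0.52 at 18 h (q = 0.0399) on the log2 scale, after 0.02 ± 0.50 at 1 h. The calls at 9 and 18 h were lost whichever replicate was left out (-1.96 to -2.03 and -1.63 to -2.12), and that at 18 h also with TMM scaling (-1.77) and without the filter. JAZ2, JAZ3 and JAZ12 had values between -0.19 and -1.28 from 3 h on, none of them called. The fit without a filter called 0 of the 3 low members JAZ7, JAZ8 and JAZ10 at 1 h, against 2.6% of genes, and edgeR, the tool run there, gave none of their 18 values over the 6 times an unadjusted p under 0.05. At 1 h all 3 JEPS libraries lay above all 3 fls2 libraries for each of them, fls2 giving 151.3, 253.1 and 263.2 for JAZ7, 140.9, 187.5 and 128.9 for JAZ8 and 607.8, 712.5 and 573.7 for JAZ10. Their 0 h groups in fls2 held 2, 1 and 0 reads in all, so the difference in response could not be resolved at this depth.

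**Figure D2:**
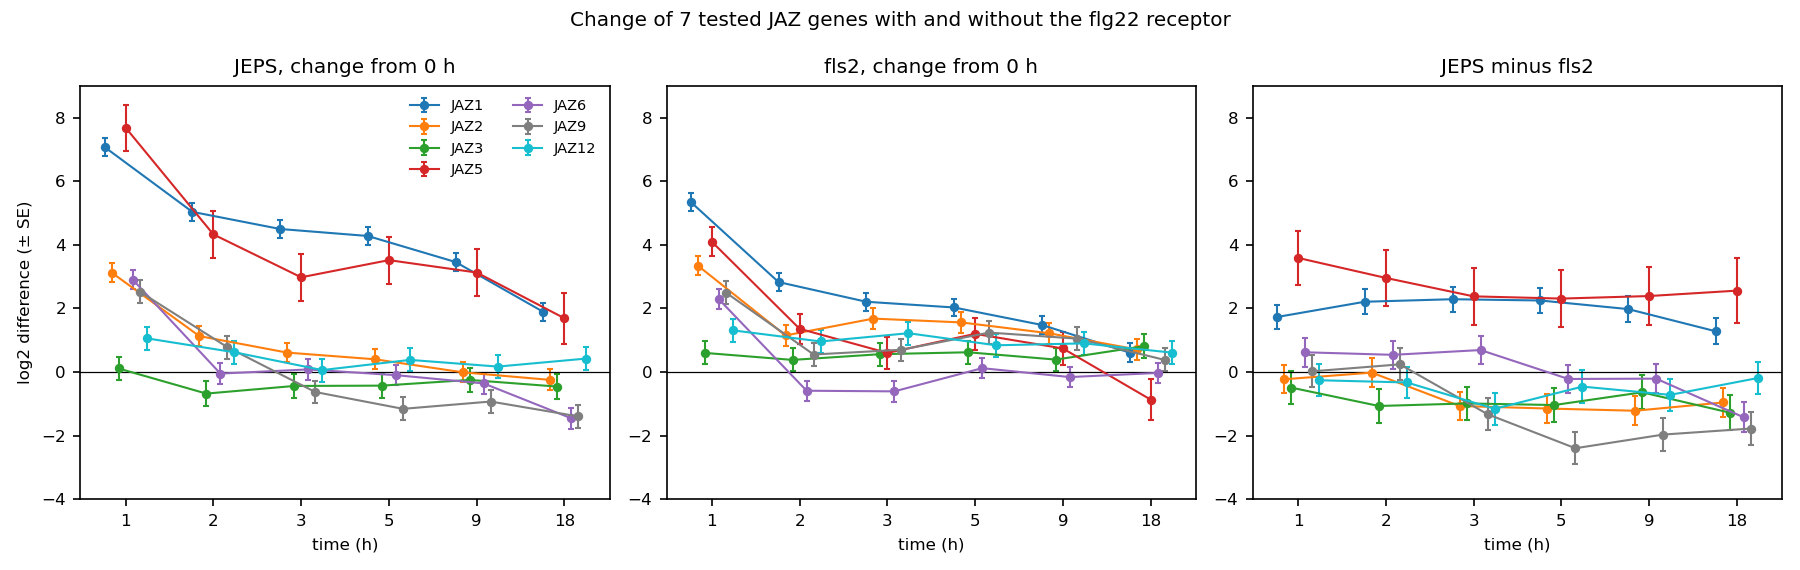
Log2 change from 0 h of the 7 tested JAZ genes in JEPS (left) and fls2 (middle) and the difference between them (right) against time; points are fitted values and bars ± 1 SE. JAZ1 and JAZ5 lie above the other members in JEPS and in the difference, and JAZ9 falls to -2.40 in the difference at 5 h.

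The largest differences between genotypes followed DDE2. The effect of a sector was taken as the mean log2 level of the 8 combinatorial genotypes with the intact gene minus that of the 8 with the mutant allele, 24 against 24 libraries at each time, with fls2 left out. With DDE2 intact, all 7 tested members were called higher at 1 h, against 2.95% of all genes. Before infiltration 3 of 7 were called higher, beside 0.354% of genes. The count was 6 at 2 h beside 2.63% of genes, 5 at 3 h beside 2.16%, and 6 at 5 h beside 1.52%. It was still 6 after 9 h (1.11% of genes) and 3 after 18 h (0.658%), and all calls were in the same direction. The median effect over the 7 members was 2.9 on the log2 scale at 1 h, against -0.10 over all genes tested. At 1 h the 24 libraries with DDE2 all lay above the 24 without it for 8 of the 10 members. The exceptions were JAZ6 and JAZ12, and the share over the genes tested was 1.06%. JAZ7, JAZ8 and JAZ10 are among the 8 but not among the genes tested, so this share can be set beside the 7 tested members only. Of these, JAZ1, JAZ2, JAZ3, JAZ5 and JAZ9 were apart.

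Among the 7 members that passed the filter, JAZ9 had the largest effect of DDE2 at 1 h. Its 24 libraries with DDE2 gave 1967 to 5522 normalised counts (median 3091) and the 24 without it 40.5 to 293.1 (median 126.2), a 27.3-fold difference, or 4.77 ± 0.13 (SE) on the log2 scale (q = 2.02e-86). The effect on JAZ9 was called at all 7 times, from 1.05 ± 0.13 at 0 h to 1.12 ± 0.13 at 18 h. Without DDE2 the gene fell after infiltration instead of rising. In jEPS it went from 237.5, 218.8 and 308.3 at 0 h to 63.6, 172.9 and 212.3 at 1 h and 48.6, 30 and 68.2 at 5 h.

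JAZ3, which did not move at 1 h in JEPS, also fell when DDE2 was lost. In jEPS it went from 106.3, 91.8 and 50 at 0 h to 15.3, 14.1 and 8.49 at 1 h and 4.76, 6.52 and 8.47 at 2 h, with no overlap between 0 h and later libraries up to 5 h. The change at 1 h was -2.69 ± 0.55 (SE) on the log2 scale (q = 7.41e-07). The effect of DDE2 on the level of JAZ3 was 0.61 ± 0.14 at 0 h, below the threshold, and 2.9 ± 0.18, 2.93 ± 0.19 and 2.60 ± 0.19 at 1, 2 and 3 h. At 2 h JAZ3 and JAZ9 were called lower than at 0 h in each of the 8 genotypes without DDE2, 2 of 7 members against 19.1% of genes, and JAZ3 was called lower in 0 of the 8 with it.

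JAZ2 lost nearly its whole burst without DDE2. At 1 h the libraries with DDE2 gave 754.2 to 1723 (median 1280) and those without it 61.6 to 194.1 (median 108.9), an effect of 3.54 ± 0.11 (SE) on the log2 scale (q = 3.89e-83). It was called higher at 1 h than at 0 h in 8 of 8 genotypes with DDE2 and in 1 of 8 without it. JAZ12 had the smallest effect at 1 h but 1, 1.37 ± 0.13, its only call, and its ranges overlapped at every time.

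JAZ1, JAZ5 and JAZ6 still rose at 1 h without DDE2, JAZ5 to a far lower level than with it. These 3 of 7 members were called higher at 1 h than at 0 h in each of the 8 genotypes without DDE2, against 13.6% of genes, and JAZ1, JAZ2, JAZ5, JAZ6 and JAZ9 in each of the 8 with it, 5 of 7 against 14.2%. In jEPS alone the count was 3 of 7 higher (20.4% of genes) and JAZ3 lower (33.3% of genes), and in jeps 3 of 7 higher (20.6%) with JAZ3 and JAZ9 lower (27.2%). JAZ1 in jEPS went from 12.5, 10.6 and 4.17 at 0 h to 3542, 4376 and 5329 at 1 h. In jeps, with all 4 sectors removed, it went from 0 reads in all 3 libraries to 2558, 2355 and 2189 normalised counts. At 1 h JAZ1 was at 5686 to 14205 (median 9876) with DDE2 and 2108 to 5329 (median 3320) without it, a 2.95-fold difference, or 1.56 ± 0.09 (SE) on the log2 scale. Its effect was larger before treatment. At 0 h the ranges were 34.8 to 184.2 with DDE2 and 0 to 25 without it. JAZ1 was the only 1 of the 10 members whose libraries did not overlap at 0 h, against 0.0422% of the genes tested. The fitted value at 0 h, 3.81 ± 0.27 (SE), rests on few reads, with 8 of the 24 libraries without DDE2 at 0.

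For JAZ5 the burst at 1 h was 816.3 to 2148 (median 1579) with DDE2 and 50.9 to 155.3 (median 100) without it, an effect of 3.99 ± 0.13 (SE). At 0 h JAZ5 held 0 reads in jepS, jePs and jeps, so the size of its rise there is poorly fixed. At 2 h the effect of DDE2 on JAZ5 was 4.50 ± 0.26, from 97.2 to 294.2 with DDE2 and 0 to 20.3 without it. JAZ6 differed less, 2475 to 5721 against 1061 to 2865 at 1 h, with 1 library without DDE2 above the lowest with it, and an effect of 1.31 ± 0.11. In jEPS JAZ6 still rose from 512.5, 497.6 and 250 to 1653, 1909 and 1523, a change of 2.02 ± 0.32 (SE) that was called (q = 8.01e-09).

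JAZ7, JAZ8 and JAZ10, the members with fewest reads, also differed at 1 h. JAZ7 at 1 h was at 250 to 1074 (median 553.1) with DDE2 and 0 to 31.6 (median 12.1) without it, and JAZ8 at 387 to 1626 (median 800.2) against 0 to 60 (median 22). JAZ10 was at 687.5 to 1979 (median 1287) against 46.2 to 123.9 (median 77.5). In the fit without a filter all 3 were called higher with DDE2 at 1 h, against 2.41% of genes, by 5.82 ± 0.26 (SE), 5.49 ± 0.20 and 3.91 ± 0.13 on the log2 scale. At 0 h JAZ7 had a read in 20 of the 24 libraries with DDE2 and in 0 of the 24 without it. JAZ10 also rose without DDE2, in jEPS from 0 reads at 0 h to 76.3, 81.2 and 101.9 normalised counts at 1 h. JAZ10 overlapped at 5 h, and at 9 h it was at 35.5 to 441.5 with DDE2 and 0 to 24.7 without it.

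**Figure D3:**
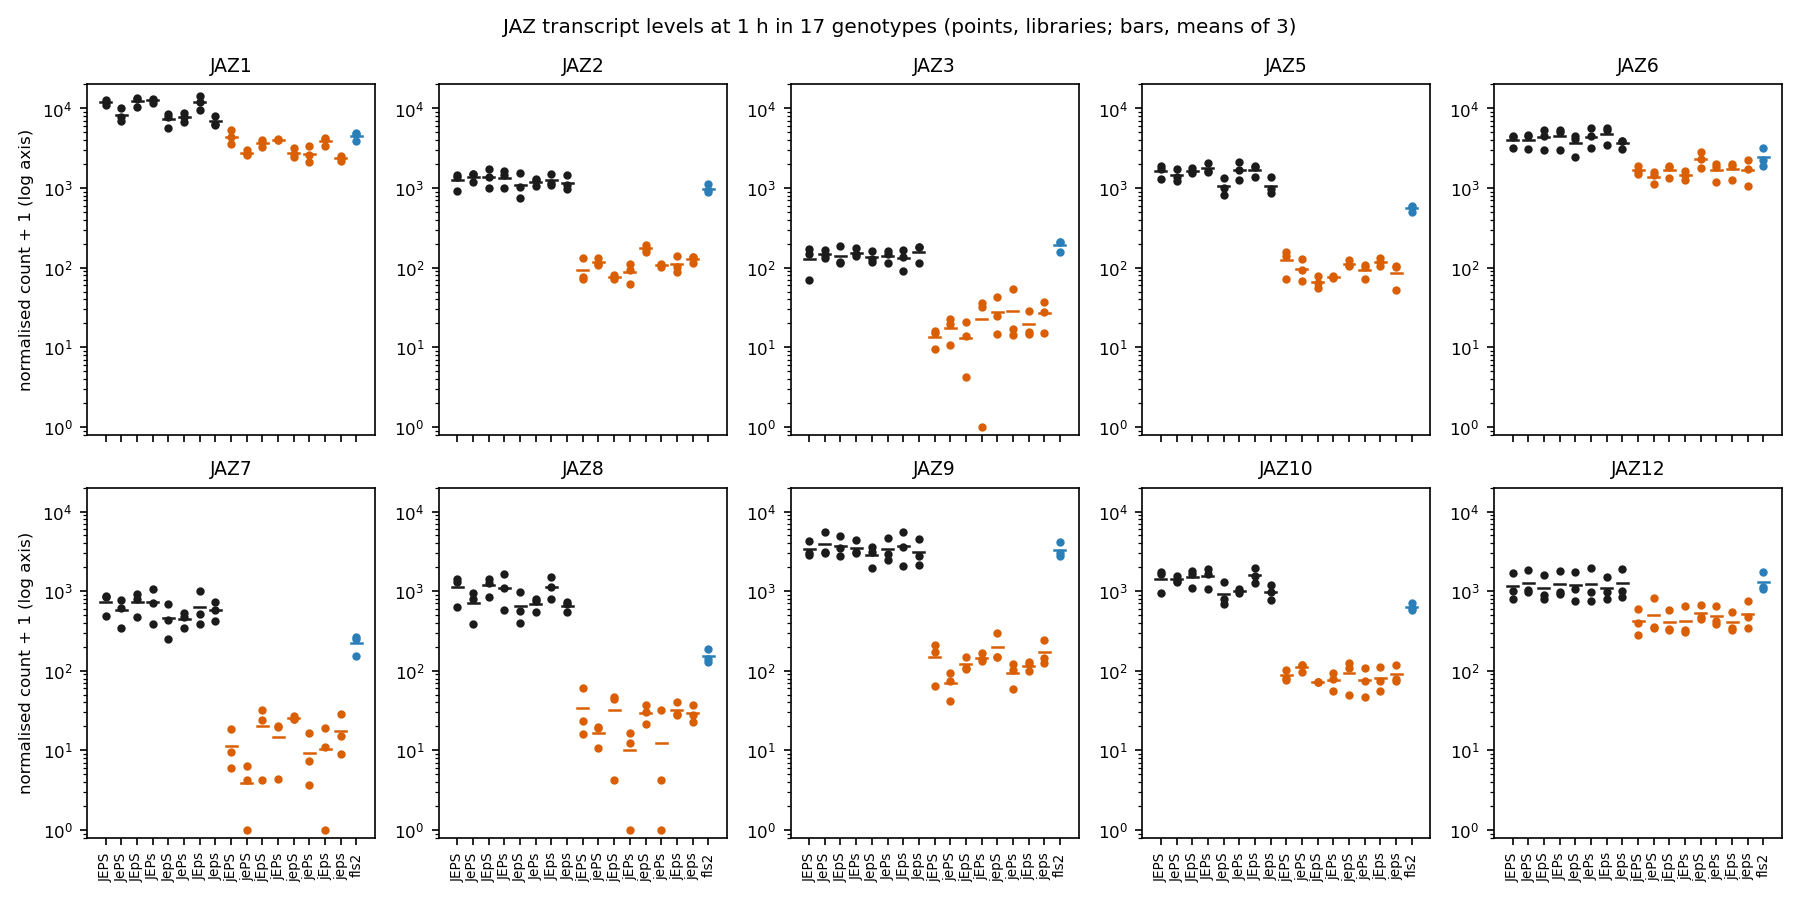
Normalised counts plus 1 (log axis) of the 10 JAZ genes at 1 h in the 8 genotypes with DDE2 (black), the 8 without it (orange) and fls2 (blue); points are libraries and short bars means of 3. For 8 of the 10 genes every black point lies above every orange point.

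Fewer members stood apart at later times, although JAZ1 overlapped at 2 h and JAZ10 at 5 h and both were apart again at 9 h. Libraries with and without DDE2 did not overlap for 8 of 10 members at 2 h, all but JAZ1 and JAZ12, against 0.869% of genes. After 3 h it was 7, all but JAZ6, JAZ7 and JAZ12, against 0.684%. These shares and those that follow are of the genes tested, which leave out JAZ7, JAZ8 and JAZ10. The members apart were JAZ1, JAZ5, JAZ8 and JAZ9 after 5 h (0.295% of genes) and JAZ1, JAZ5 and JAZ10 after 9 h (0.16%), and 0 members after 18 h (0.0675%). Some of these gaps were narrow and rest on few reads and on the scaling of libraries. JAZ7 at 2 h was split by 6.38 in Jeps (2 reads) against 3.95 in jeps (1 read). JAZ8 at 5 h was split by 3.03 in JEPS against 2.73 in jEPS, 1 read each. For JAZ5 at 9 h the values were 45.65 in JEps (7 reads) and 45.45 in jEpS (5 reads). JAZ9 had medians of 537.2 with DDE2 and 39.7 without it at 3 h. Its medians were 645.9 and 81.7 at 9 h, when 2 libraries without DDE2 reached above the lowest with it, and 466.2 and 191.6 at 18 h. JAZ8, which had fewer reads, was at 11.2 to 63 (median 32.8) with DDE2 at 3 h, while 22 of the 24 libraries without it held no read. At 18 h the effects still called were 1.82 ± 0.11 (SE) for JAZ1, 2.12 ± 0.34 for JAZ5 and 1.12 ± 0.13 for JAZ9.

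The other 3 sectors had few called effects on JAZ levels. For EIN2, 1 of 7 members, JAZ1, was called at 1 or more times, against 9.8% of genes. JAZ1 was higher with EIN2 by 1.29 ± 0.27 (SE) at 0 h, 1.02 ± 0.09 at 2 h and 1.40 ± 0.11 at 18 h on the log2 scale, with ranges that overlapped at every time, as at 18 h with 63 to 579 (median 237.7) against 3.61 to 329.2 (median 72.6). The size of the 0 h value is poorly fixed, since jePS, jepS, jePs and jeps then held 3, 1, 5 and 0 reads of JAZ1 in all. The call at 2 h was lost without replicate 1 (0.97), without replicate 2 (0.96) and with a term for lane (0.95). For PAD4 and SID2 edgeR called 0 of 7 members at any time, against 3.27% and 3.2% of genes; 9 and 5 of the 49 values had an unadjusted p under 0.05, the largest absolute effects were 0.82 and 0.73, and the study's negative binomial model and DESeq2 also called 0. For the 6 members other than JAZ1, edgeR called 0 of 42 EIN2 values (16 with an unadjusted p under 0.05, the largest 0.71), as did both other tools. These zeros rest in part on the size threshold. Without it, 4 PAD4 values, 4 SID2 values and 11 further EIN2 values of the 7 tested members were called. The shares of all genes called without the threshold are not given, so these calls are not read as particular to the members. In the fit without a filter, JAZ10 had an EIN2 effect of -0.86 ± 0.19 (SE) at 5 h (edgeR, q = 0.000358), below that threshold.

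Whether another sector changes the effect of DDE2 was tested over 21 comparisons. For 1 of 7 members, JAZ1, a difference was called, against 1.01% of genes. At 18 h the effect of DDE2 on JAZ1 was smaller where EIN2 was intact, by -1.13 ± 0.21 (SE) on the log2 scale (q = 0.00125). JEPS gave 314.5, 355.9 and 307.5 and jEPS 159.4, 211.3 and 230.8, whereas JePS gave 225, 152.5 and 329.2 and jePS 50, 50.6 and 60. The call was lost without replicate 2 (-1.08) and without replicate 3 (-1.11).

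**Figure D4:**
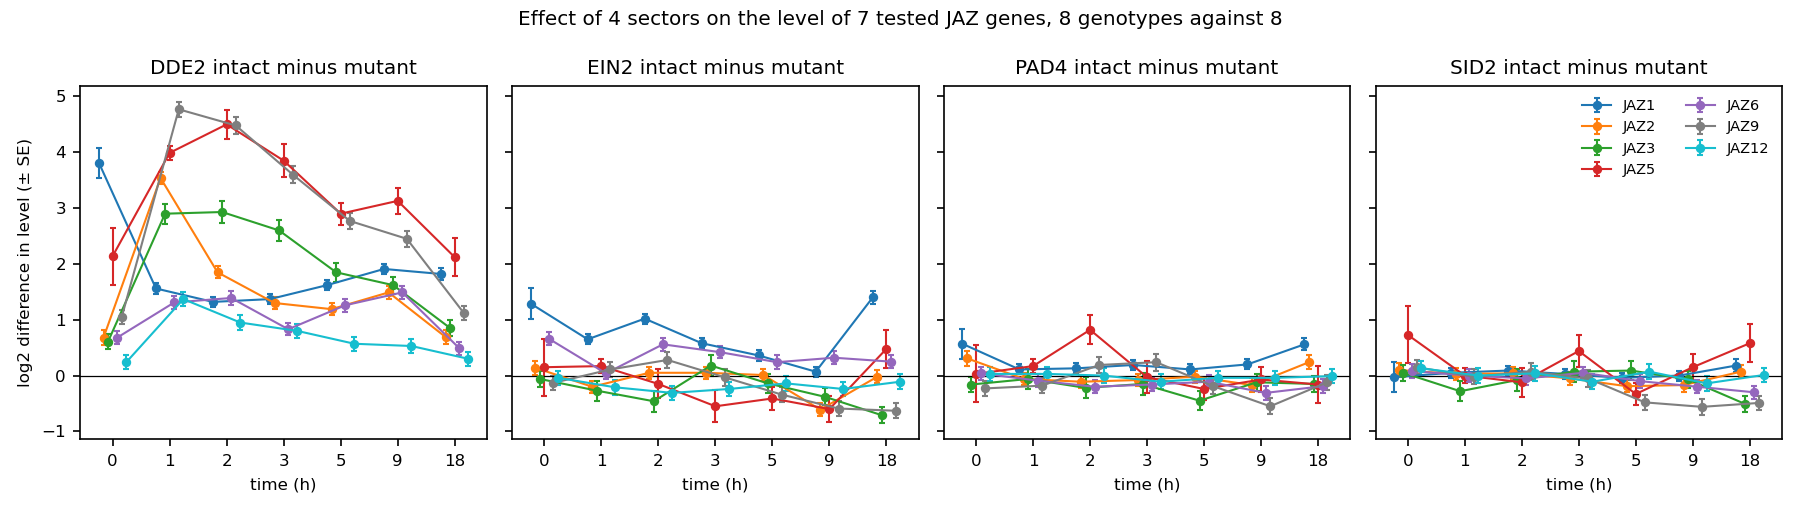
Effect of DDE2, EIN2, PAD4 and SID2 on the log2 level of the 7 tested JAZ genes at 7 times, intact minus mutant, 24 against 24 libraries; points are fitted values and bars ± 1 SE. Effects of DDE2 reach 4.77 (JAZ9, 1 h), whereas those of PAD4 and SID2 stay within 0.82 of 0.

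Each genotype was also set against JEPS and against jeps in its change from 0 h. These comparisons share the JEPS and jeps libraries. Against JEPS, 5 of 7 members were called in 1 or more of 90 comparisons, against 15% of genes. At 1 h JAZ9 responded less in all 8 genotypes without DDE2, with log2 differences of -4.70 to -3.31, JAZ2 in 7 of them, JAZ3 in 5 and JAZ5 in 1, and no member was called in any of the 7 other genotypes with DDE2. JAZ1 was called higher than in JEPS in 1 genotype without DDE2 at 1 h and in 3 at 3 h, all with 0 h levels near 0. With the replicate block the calls against JEPS over members and comparisons numbered 110 in place of 53, and without 1 replicate 22 to 29. Shares of all genes are not given under these settings or for single genotypes and times, against JEPS or jeps. Those counts describe the members only. Against jeps, 4 of 7 members were called, against 22.9% of genes, with JAZ9 higher in 29 comparisons, JAZ3 in 10 and JAZ2 in 8. JAZ1 was among the 4 only through 31 comparisons with jeps in which it was called lower. These rest on the 0 reads of JAZ1 in jeps at 0 h, so no size is read from them. Over the change from 0 h in all 17 genotypes, 7 of 7 members were called in 1 or more of 102 comparisons, as were 96.3% of genes.

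Genes of the JA pathway outside the 10 members were counted in lists chosen with earlier results of these data known. With DDE2 intact, 4.46% of all genes tested were called higher at 1 or more times, as were 7 of 7 members. Of 12 tested genes of JA synthesis, 12 were called higher and none lower, among them LOX2, a plastid lipoxygenase (4.86 ± 0.11 (SE) on the log2 scale at 3 h), and OPR3, an oxophytodienoate reductase (4.05 ± 0.09 at 1 h). DDE2 itself was not in that list. All 4 tested genes of hormone breakdown were higher, with 7.05 ± 0.33 for the jasmonate oxidase gene JOX2 at 3 h and 4.82 ± 0.28 for the sulfotransferase gene ST2A at 2 h. Among 8 tested genes for the receptor, co-repressors and bHLH factors, 2 were higher, MYC2 (2.92 ± 0.12 at 1 h) and JAM1, a repressing relative of MYC2 (2.34 ± 0.14 at 1 h). JAZ11, the 1 tested gene of the 3 JAZ genes outside the members, was not called. In the response of JEPS against fls2, 5 of the 12 synthesis genes were called lower, against 21% of all genes tested, with AOC4 at -3.28 ± 0.65 (SE) and LOX2 at -2.22 ± 0.41 at 9 h. Also called lower were MYC2 (-2.43 at 9 h), MYC4 (-2.62 at 3 h) and JAZ11 (-1.96 at 2 h).

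The genes most like each member were sought by Pearson's r of the mean log2 level over the 119 groups. It is given as a description, since the groups share genotypes, times and scaling. AOC3, an allene oxide cyclase gene of JA synthesis, was nearest to JAZ1 (r = 0.936), followed by FUT4 (0.904). OPR3 was nearest to JAZ2 (0.928), JAZ5 (0.905), JAZ7 (0.892) and JAZ8 (0.910). LOX3, a lipoxygenase gene of JA synthesis, was nearest to JAZ10 (0.901) and second for JAZ5 (0.895) and JAZ8 (0.897). JAZ3 was nearest to the chlorophyllase gene CLH1 (0.945), JAZ9 to the gene PMSR2 (0.921) and then MYC2 (0.919), JAZ12 to FAMT (0.872) and then MYC2 (0.852), and JAZ6 to AT5G53750 (0.923). The second genes were AT3G51450 for JAZ2 (0.895) and JAZ10 (0.900), PGIP2 for JAZ3 (0.918), AT4G28085 for JAZ6 (0.859) and ILL6 for JAZ7 (0.874). Among the members themselves r was highest between JAZ7 and JAZ8 (0.934) and between JAZ5 and JAZ8 (0.922), whereas JAZ1 and JAZ3 gave -0.128.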

How the data were processed

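Leaf RNA was profiled by stranded 3' Tag-Seq in 357 libraries. The authors mapped reads to TAIR10 transcripts with Bowtie 0.12.8, kept reads of 1 gene only, summed them per gene and deposited the raw counts used here. Genes with 50 or more libraries at 0, or with 25 or fewer reads in the library ranked 15th, were left out (11848 of 33600 remained). The same rule left more genes in the study, so the shares of all genes given here rest on a smaller set than its own. Counts were fitted with 1 mean for each of 119 groups and an offset of ln(90th percentile / 300) by edgeR 4.0.16 (R 4.3.3). Groups with 0 reads received 1 read in 1 library, following the study. The quasi-likelihood F tests were computed in Python 3.11.15 and checked against edgeR over 180 tests (largest difference in log10 p 4.3e-07), and tested on simulated data. Storey q-values were pooled over genes and the comparisons of a family. Differences were called at q under 0.05 and an absolute log2 difference above 1.

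Alternatives were TMM, no filter, the study's negative binomial model, DESeq2 1.42.0 (dispersions without its Cox-Reid term), Benjamini-Hochberg adjustment, leaving out each replicate, a replicate block within time, a lane term (23 lanes) and no size threshold. A replicate number marks a shared set of 4 experiments in the study's methods; libraries of 1 replicate and time deviated together from their group means (mean r = 0.291, above 0.1 in 96.1% of pairs). The highest r between the log2 levels of 2 libraries over the genes tested, without removing group means, was 0.974. Members and lists were chosen with earlier results of these data known. Named were all 10 members, the 2 largest called differences of each JA list and the 2 genes most like each member. Promoters came from RefSeq. Leaves of 0, 9 and 18 h were harvested at other times of day than the rest.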

Additional observations from a re-analysis of the deposited data

Results flagged for a closer look

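A difference between groups was called once: at 18 h the effect of DDE2 on the JAZ1 level was smaller in the 4 pairs of genotypes with EIN2 than in the 4 pairs with ein2-1, by -1.13 on the log2 scale (edgeR quasi-likelihood, q = 0.00125). The value was -1.12 with the replicate block and -1.08 to -1.27 without 1 replicate, and the call was lost without replicate 2 and without replicate 3. JAZ1 at 18 h was at 53.5 ± 5.6 (SD, n = 3) in jePS and 200.5 ± 36.9 in jEPS.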

How the results depend on the processing

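For the response of JEPS against fls2, 3 members and 10 calls became 6 and 19 with the study's negative binomial model, 6 and 17 with DESeq2 (Wald tests, dispersions without the Cox-Reid term), 6 members with the replicate block and 5 with a term for lane; without 1 replicate the calls ranged from 6 to 7. Calls against jeps, 78 in the main model, ranged from 32 to 50 without 1 replicate. Against JEPS, 5 members and 53 calls became 90 calls with the negative binomial model, 85 with DESeq2, 110 with the replicate block and 106 with lane; without 1 replicate they ranged from 3 to 4 members and 22 to 29 calls. The 39 calls of a sector effect became 59 without the filter, when JAZ7, JAZ8 and JAZ10 were added, and 69 without the size threshold. The difference of the DDE2 effect between backgrounds had 0 to 1 calls without 1 replicate. Shares of all genes are not given beside these counts, which describe the members only. No called value of the 7 tested members changed direction under any alternative run. TMM and DESeq2 scaling moved the median of all genes in the response of JEPS against fls2 by 0.20 to 0.31 on the log2 scale at 1, 2 and 3 h, and JAZ1 at 1 h moved from 1.73 to 1.97 and 2.05 with it. Ranks of the members by level in JEPS at 0 h and 1 h were the same in RPM. Of the 20 named likeness pairs, 8 remained with Spearman's coefficient. Depth limits JAZ5, JAZ7, JAZ8 and JAZ10 at 0 h, where a library held few or no reads.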
